A study of Mus musculus with 6 samples.

Results

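The Ly6 surface protein family was followed in macrophages sorted from mouse tumours, through 6 genes picked by symbol from the deposited table of 21760 gene symbols: Ly6a, Ly6c1, Ly6c2, Ly6e, Ly6g and Ly6i. All 6 were listed and all 6 passed the filter on low counts. The genes were chosen with the difference between the tumour genotypes already known, so their values in that comparison are a description, and where the test over all genes called some of them, this is listed without weight. The RNA came from macrophages purified by flow cytometry out of tumours of MC38, a colon carcinoma line of the mouse, 16 days after growth under the skin of C57BL6 mice began. In 2 libraries the tumours were wild type (WT, called WTb in the labels), and in 4 they were knocked out (KO) for Xkr8, a caspase-activated scramblase that exposes phosphatidylserine on dying cells. The KO libraries came from 2 clones, with 2 mice each. By the series' design the tumours carry the knockout, and the macrophages are cells of the host. Each clone is a single derivative of the line, so an effect of the missing gene and any other trait of a clone cannot be told apart. What both clones share is set against the same 2 WT libraries. An effect of the missing gene and a trait of the WT line cannot be told apart there either. The labels give no age or sex of the mice, no sorting gate and no origin of the WT line.

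Ly6 proteins are small, cysteine-rich proteins held on the outer face of the cell membrane by a glycosylphosphatidylinositol (GPI) anchor, and their genes sit side by side in clusters. Ly6C, encoded by the closely similar pair Ly6c1 and Ly6c2, marks monocytes that enter inflamed tissue from blood, and its level falls as they mature into macrophages. Several members are induced by interferon. The proteins are also carried by other cells: Ly6a, the stem cell antigen Sca-1, by T cells, endothelium and stroma, Ly6C by T cell subsets and endothelium, and Ly6G by neutrophils.

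The genes lie on mouse chromosome 15 (GRCm38, GENCODE M21) and all 6 are protein coding. From the lower coordinate up they are Ly6e (74955051 to 74959905, plus strand), Ly6i (74979534 to 74983430, minus), Ly6a (74994877 to 74998031, minus), Ly6c1 (75044018 to 75048830, minus), Ly6c2 (75108158 to 75111970, minus) and Ly6g (75155240 to 75159126, plus). Ly6f, a further gene of the cluster that the symbol list did not include, follows at 75268421 to 75272235 on the plus strand.

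Sequences upstream of Ly6c2 and Ly6c1 are shown because the pair differs most in its pattern across the libraries, and those of Ly6g and Ly6f because they share parts of both. RefSeq promoter windows (GRCm38.p6) were listed for 3 of the 6 members, Ly6c1, Ly6c2 and Ly6g, and for Ly6f. Each line gives the 250 bases before the most upstream listed start, 5′ to 3′ on the strand of the gene. Capitals mark matches to TATAAA, the letters of a TATA box, and to GAGGAAGT, letters bound by ETS factors such as the myeloid factor PU.1. The windows are chr15:75111972-75112221 (minus strand), chr15:75048838-75049087 (minus), chr15:75155011-75155260 (plus) and chr15:75268171-75268420 (plus), in the order of the lines.
Ly6c2: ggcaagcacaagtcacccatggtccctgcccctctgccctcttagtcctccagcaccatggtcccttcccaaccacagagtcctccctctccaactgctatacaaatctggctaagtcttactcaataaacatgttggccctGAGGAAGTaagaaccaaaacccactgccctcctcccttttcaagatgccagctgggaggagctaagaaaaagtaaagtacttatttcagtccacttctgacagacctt
Ly6c1: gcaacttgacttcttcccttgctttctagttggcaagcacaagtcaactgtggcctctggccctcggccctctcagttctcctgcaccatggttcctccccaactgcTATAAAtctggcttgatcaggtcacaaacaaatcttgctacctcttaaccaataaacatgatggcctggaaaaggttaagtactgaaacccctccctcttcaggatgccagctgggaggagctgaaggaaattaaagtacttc
Ly6g: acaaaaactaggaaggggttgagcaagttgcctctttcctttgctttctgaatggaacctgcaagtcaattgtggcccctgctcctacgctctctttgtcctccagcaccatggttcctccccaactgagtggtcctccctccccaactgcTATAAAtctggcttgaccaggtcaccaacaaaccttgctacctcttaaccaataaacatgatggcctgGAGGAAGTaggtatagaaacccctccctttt
Ly6f: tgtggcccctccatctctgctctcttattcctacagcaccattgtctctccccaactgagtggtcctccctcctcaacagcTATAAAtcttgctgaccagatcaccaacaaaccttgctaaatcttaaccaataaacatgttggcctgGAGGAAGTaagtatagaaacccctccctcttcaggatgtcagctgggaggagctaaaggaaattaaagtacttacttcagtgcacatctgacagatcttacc

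The Ly6c2 window holds GAGGAAGT, from 108 to 101 bases before the start, and no TATAAA. The Ly6c1 window holds TATAAA, from 143 to 138 bases before the start, and no GAGGAAGT. The Ly6g and Ly6f windows hold both. Over 32851 windows of the same length, searched on both strands, 12.4% held TATAAA and 2.44% held GAGGAAGT. The interferon-stimulated response element, searched as GAAA repeated after a gap of 2 bases (2.98% of windows), and the letters TTCNNNGAA of interferon gamma-activated sites (7.02%) were in none of the 4 windows, and TTNNGCAA (9.56%), letters of C/EBP factors, was in those of Ly6g and Ly6f. No match overlapped another, and the 5 motifs were chosen after the sequences and the levels had been seen. Of the bases that could be aligned, 75.9% were identical between the Ly6c2 and Ly6c1 windows (216 bases) and 88.8% between those of Ly6g and Ly6f (179 bases).

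Levels are given as CPM, counts scaled to a common library size with TMM factors, which align the bulk of the genes between libraries. Library totals were 20038047 reads for WT mouse 2 and 37090034 to 40022755 for the others. WT mouse 2 stands apart: 24.6% of its reads fell on Rn45s, the precursor of ribosomal RNA, against 1.46% to 7.12% elsewhere, so the fold change of each Ly6 gene is also given without it. Xkr8 itself stood at 6.90 and 6.05 CPM in WT mice 1 and 2 and at 4.14 to 6.97 CPM in the KO group, which checks no label, since the series' design places the knockout in the tumours. The macrophage genes Adgre1 and Csf1r were abundant in every library. Adgre1 stood at 667 and 528 CPM in WT mice 1 and 2 and at 767 to 966 CPM in the KO group, all above WT. Csf1r stood at 1114 and 1633 CPM in WT mice 1 and 2 and at 1059 to 1302 CPM in the KO group, which overlapped. The macrophage list summed to 10752 and 15910 CPM in the WT and 12230 to 15563 CPM in the KO libraries, so its ranges overlapped. In sorted bulk RNA, a change in the number of cells of a type and a change in RNA per cell cannot be told apart.

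Ly6c2 stood at 2.72 and 4.27 CPM in WT mice 1 and 2. It stood at 87.4 and 100.4 CPM in clone 1 mice 1 and 2, and at 85.5 and 88.3 CPM in clone 2 mice 1 and 2. The lowest KO library was thus 20.04 times the higher WT library, while the KO libraries differed among themselves by at most 1.17 times. The log2 fold change of KO against WT was 4.72 ± 0.27 (SE), a fold of 26.4. Leaving out WT mouse 2 gave 5.03, and leaving out WT mouse 1 gave 4.42.

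**Figure D1:**
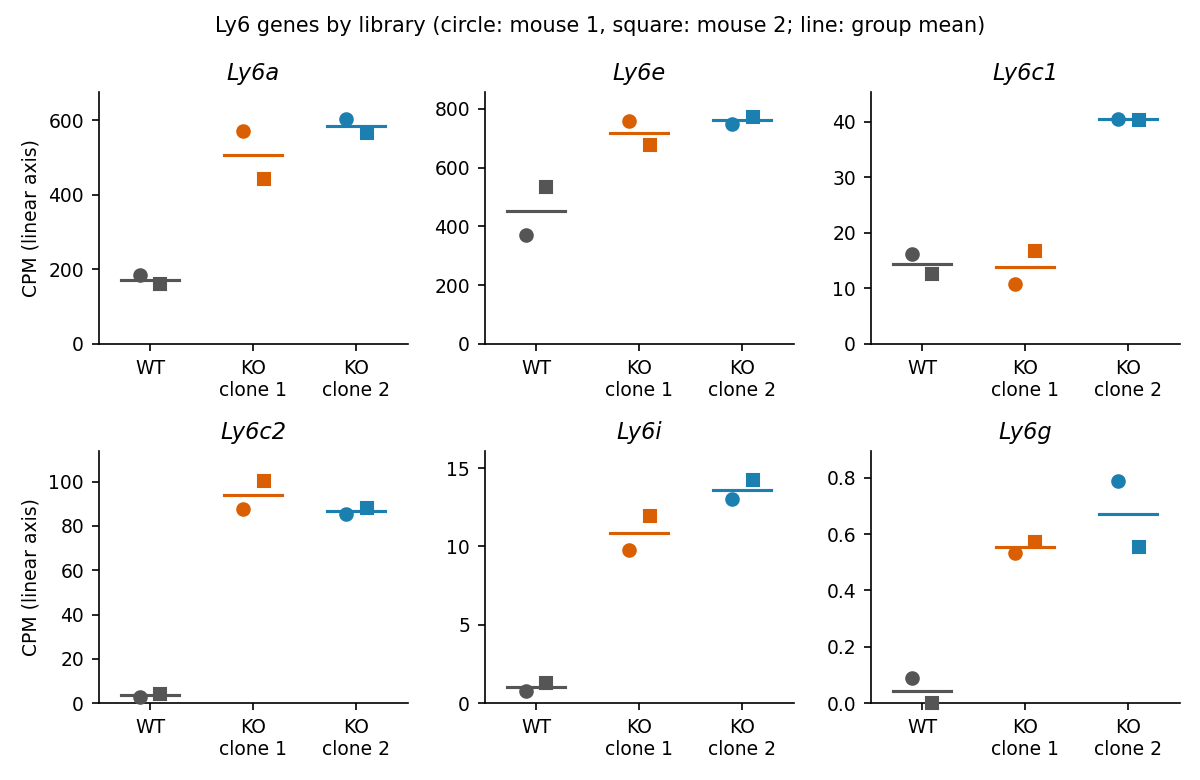
CPM of the 6 Ly6 genes in each library on linear axes that start at 0, with a circle for mouse 1, a square for mouse 2 and a line at the group mean (n = 2 per group). For Ly6c2, Ly6i, Ly6a, Ly6e and Ly6g all 4 KO libraries lie above both WT libraries, while for Ly6c1 the clone 2 libraries alone lie above them with a clear gap, at 40.5 and 40.3 CPM.

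Ly6c1, the closely similar neighbour of Ly6c2, followed another pattern. It stood at 16.2 and 12.5 CPM in WT mice 1 and 2 and at 10.8 and 16.8 CPM in clone 1 mice 1 and 2. In clone 2 mice 1 and 2 it stood at 40.5 and 40.3 CPM. The clone 1 values thus spanned both WT values, while both clone 2 libraries were at least 2 times higher than every other library. Against WT the log2 fold change was -0.07 ± 0.29 (SE) in clone 1 and 1.49 ± 0.29 in clone 2. The WT libraries serve both comparisons. With both clones together it was 0.91 ± 0.55, and 0.72 without WT mouse 2. In clone 1 the sign turned without WT mouse 1 (0.15) and without clone 1 mouse 1 (0.22), and it was -0.42 without clone 1 mouse 2.

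The share of the Ly6c pair that was assigned to Ly6c2 separated the groups. Ly6c2 made up 14.4% of the reads of the pair in WT mouse 1 (exact 95% binomial interval 12.1% to 16.9%) and 25.4% in WT mouse 2 (20.1% to 31.4%). It made up 89.0% (88.0% to 90.0%) and 85.7% (84.6% to 86.7%) in clone 1 mice 1 and 2. In clone 2 mice 1 and 2 it made up 67.9% (66.5% to 69.2%) and 68.6% (67.4% to 69.9%). Reads of the pair thus went mostly to Ly6c1 in WT libraries and mostly to Ly6c2 in KO libraries, with clone 2 between WT and clone 1. The intervals cover counting error only, not the error of dividing reads between similar genes.

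How far that division can be read depends on the sequence the genes share. Of the 836 distinct runs of 31 bases in the annotated coding transcripts of Ly6c2, 403 (48.2%) also occur in those of Ly6c1, and 408 occur in none of the other 6 Ly6 genes compared. Of the 1758 such runs of Ly6c1, 22.9% occur in Ly6c2 and 15.7% in Ly6a. Ly6e shared none with the others. Reads of Ly6c2 and Ly6c1 can be told apart over part of their length only, so the summed pair is given too. The pair summed to 19.0 and 16.8 CPM in the WT libraries, 98.2 and 117 CPM in clone 1, and 126 and 129 CPM in clone 2. With the counts summed before the fit, the log2 fold change of KO against WT was 2.71 ± 0.20 (SE), smaller than that of Ly6c2 alone. It was 2.59 ± 0.22 in clone 1 and 2.83 ± 0.22 in clone 2.

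**Figure D2:**
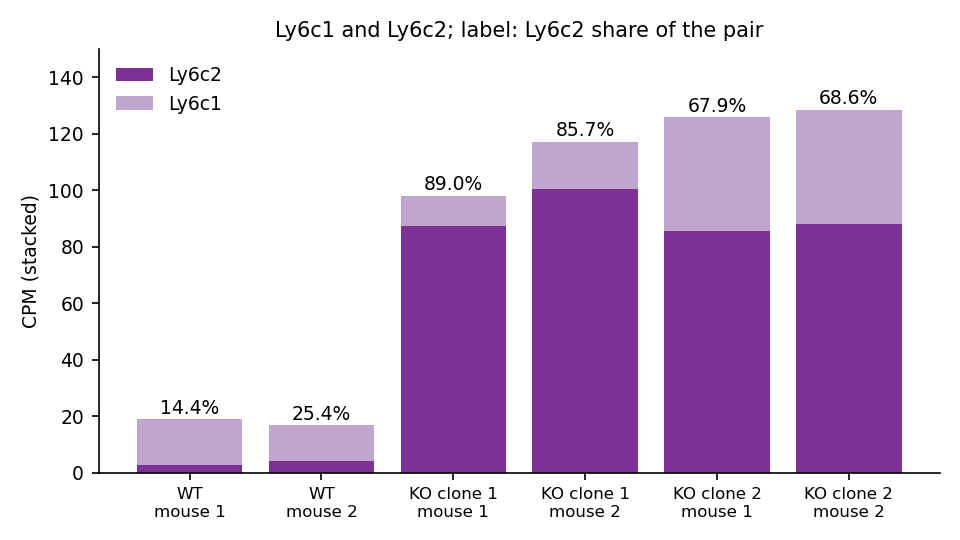
Stacked bars of Ly6c2 (dark) and Ly6c1 (light) in CPM for each library, with the Ly6c2 share of the reads of the pair above each bar. The sum runs from 16.8 to 19.0 CPM for WT mice and from 98.2 to 129 CPM for KO mice, and the Ly6c2 share is 14.4% and 25.4% in WT, 85.7% to 89.0% in clone 1 and 67.9% to 68.6% in clone 2.

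Ly6i, a close relative in the same cluster, stood at 0.747 and 1.31 CPM in WT mice 1 and 2. It stood at 9.77 and 11.9 CPM in clone 1 and at 13.02 and 14.2 CPM in clone 2. All KO libraries were at least 7.47 times the higher WT library, and both clone 2 libraries lay above both clone 1 libraries. The log2 fold change of KO against WT was 3.64 ± 0.34 (SE), and 4.005 without WT mouse 2. Ly6c2 reads were 3.26 to 3.65 times those of Ly6i in WT libraries, 8.41 to 8.95 times in clone 1 and 6.21 to 6.56 times in clone 2. Of the 31-base runs of Ly6i, 14.6% occur in one of the other Ly6 genes.

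Ly6a, an interferon-inducible antigen of stem cells and T cells, was far more abundant. It stood at 184 and 159 CPM in WT mice 1 and 2, at 572 and 443 CPM in clone 1 and at 603 and 566 CPM in clone 2. Every KO library was at least 2.40 times the higher WT library. The log2 fold change was 1.67 ± 0.21 (SE) for KO against WT and 1.54 without WT mouse 2.

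Ly6e, which is expressed widely and limits the entry of some viruses, had the smallest gap among the 5 genes whose genotypes did not overlap. It stood at 372 and 534 CPM in WT mice 1 and 2, at 759 and 677 CPM in clone 1 and at 749 and 774 CPM in clone 2. The KO libraries did not overlap the WT libraries, but the lowest was only 1.27 times the higher WT library, and the WT mice themselves differed by 0.52 on the log2 scale. The log2 fold change was 0.71 ± 0.21 (SE), 0.97 without WT mouse 2 and 0.48 without WT mouse 1. Ly6a reads were 0.496 and 0.299 times those of Ly6e in the WT and 0.654 to 0.806 times in the KO libraries.

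Ly6g, the antigen by which neutrophils are sorted, was close to absent. It had 4 reads in WT mouse 1 (0.0879 CPM) and 0 in WT mouse 2, which allows a level of up to 0.206 CPM (3 reads). In clone 1 it had 22 reads in each mouse (0.533 and 0.573 CPM) and in clone 2 it had 31 and 23 reads (0.788 and 0.553 CPM). All KO libraries were above both WT libraries, at a level under 1 CPM throughout. The fitted log2 fold change was 3.25 ± 0.76 (SE), and 2.73 without WT mouse 2. The defining neutrophil markers were also under 1 CPM in every library. S100a8 had 0.0439 and 0.138 CPM in WT mice 1 and 2 and 0.234 to 0.339 CPM in the KO group, all above WT, and S100a9 had 0.0659 and 0 CPM against 0.0521 to 0.649 CPM, with 3 of 4 KO libraries above WT. Retnlg, also under 1 CPM throughout, had 0.0879 and 0 CPM in WT mice 1 and 2. It had 0.391 to 0.994 CPM in the KO group, all above WT. Other genes of the list were more abundant. Csf3r, the receptor of a granulocyte growth factor, had 26.3 and 25.9 CPM against 44.8 to 61.6 CPM. The chemokine receptor Cxcr2 had 11.9 and 12.9 CPM against 6.08 to 8.87 CPM. None of these neutrophil genes passed the test, and 7 of the 8 tested genes of the list were positive. The part of neutrophils in the Ly6g values was not tested.

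Levels of different genes were compared per kb of the longest annotated coding transcript. That length is 955 bases for Ly6a and 2281 bases for Ly6e, and which transcripts were expressed is not known. In WT libraries Ly6e (163 to 234 CPM per kb) and Ly6a (167 to 193) overlapped at the top, followed by Ly6c1 (14.8 to 19.2), Ly6c2 (3.31 to 5.19), Ly6i (0.646 to 1.13) and Ly6g (0 to 0.0934). In KO libraries the order was Ly6a (464 to 632 CPM per kb), Ly6e (297 to 339), Ly6c2 (104 to 122), Ly6c1 (12.7 to 48.0), Ly6i (8.45 to 12.3) and Ly6g (0.567 to 0.838). Per kb, Ly6a stood above Ly6e in every KO library and in WT mouse 1 (193 against 163), but below it in WT mouse 2 (167 against 234). In CPM, without division by length, Ly6e stood above Ly6a in every library, so their order depends on the lengths used. The order per kb thus differed between every WT and every KO library for the Ly6c pair alone, with Ly6c2 above Ly6c1 in KO libraries. The order of Ly6a and Ly6e was split within WT. Among other neighbours in these orders no ranges overlapped, though the lowest Ly6c1 value (12.7) lay close to the highest Ly6i value (12.3) there. The 6 genes together summed to 576 and 711 CPM in the WT group and to 1249 to 1492 CPM in the KO group, of which Ly6a and Ly6e made up 96.6% and 97.5% in WT and 89.6% to 92.5% in KO libraries.

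Between genotypes, 5 of the 6 genes had all KO libraries above both WT libraries, as had 12.9% of the 15560 genes tested. For 4 of the 6 the lowest KO library was at least 2 times the higher WT library, beside 1.24% of all genes. By edgeR's quasi-likelihood test over all genes, Ly6c2, Ly6i and Ly6a were among the 20 genes called higher (0.129%). These counts describe genes chosen on this contrast, and nothing is read from them. In either direction 21 genes were called, 28 without WT mouse 2, 6020 without WT mouse 1 and 1 to 4 without a KO library. In each clone against WT, 0.00643% of genes were called, which is Ly6c2 alone. Log2 fold changes in clone 1 and clone 2 were 4.77 ± 0.31 and 4.66 ± 0.30 (SE) for Ly6c2, 3.47 ± 0.36 and 3.79 ± 0.36 for Ly6i, 1.56 ± 0.24 and 1.76 ± 0.24 for Ly6a, and 0.67 ± 0.26 and 0.75 ± 0.26 for Ly6e.

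The contrast of clone 2 with clone 1 does not set anything against the WT libraries and asks whether macrophages from tumours of the 2 clones differ. No gene was called among 15560 (0%) by edgeR's quasi-likelihood test or by limma-voom, with 502 (3.23%) and 522 genes at an unadjusted p under 0.05, while DESeq2 called 117. Without WT mouse 1 or WT mouse 2, which enter only the shared estimate of the spread, edgeR called 78 and 87 genes. Ly6c1 had a log2 fold change of 1.55 ± 0.29 (SE), with a 95% interval of 0.85 to 2.26. Its edgeR adjusted p was 0.426 (unadjusted 0.0014), so it did not pass. It passed in DESeq2 alone, with an adjusted p of 0.000855, and over the 13 alternatives its adjusted p ran from there to 0.999999. Both clone 2 libraries were above both clone 1 libraries for Ly6c1 and Ly6i, as for 21.8% of all genes, and 44.5% of all genes had no overlap between clones in either direction.

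For the other 5 genes no difference between clones was detected (edgeR adjusted p = 0.999943 for each), and their intervals show what size remains possible on the log2 scale. The interval ran from -0.72 to 0.50 for Ly6c2, from -0.36 to 0.77 for Ly6a, from -0.53 to 0.70 for Ly6e, from -0.41 to 1.07 for Ly6i and from -1.27 to 1.83 for Ly6g. Those of Ly6c2, Ly6a and Ly6e thus end below the lower bound of 0.85 for Ly6c1, and those of Ly6i and Ly6g do not. The difference between genes was not tested.

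**Figure D3:**
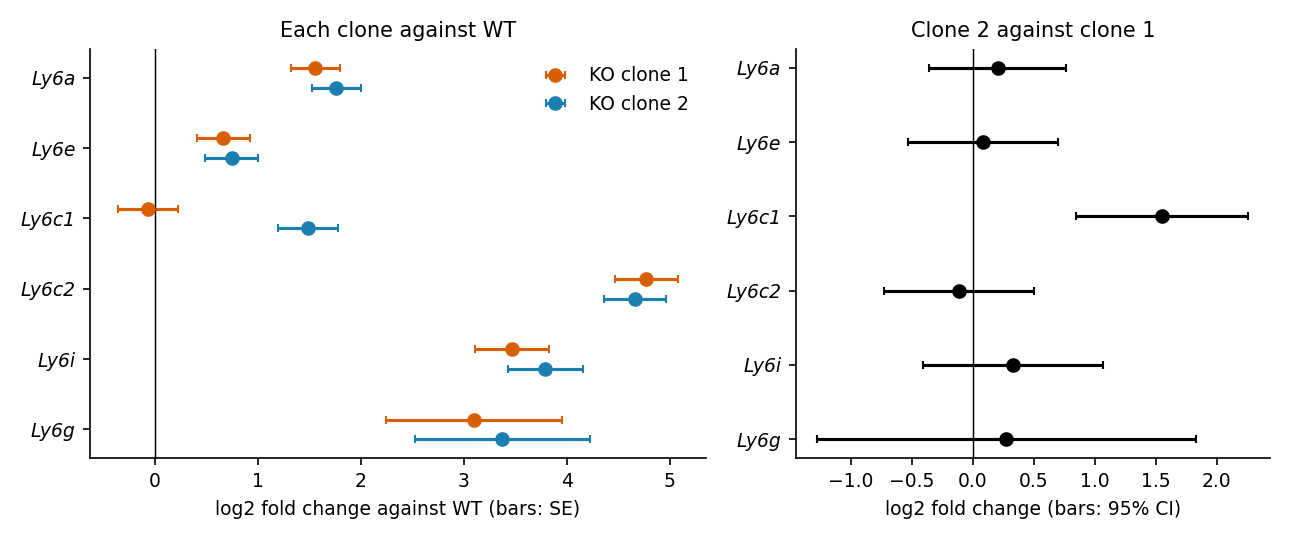
Left, log2 fold change of each KO clone against WT for the 6 Ly6 genes, with bars of 1 SE. Right, log2 fold change of clone 2 against clone 1 with 95% intervals. The clones lie close together for Ly6a, Ly6e, Ly6c2, Ly6i and Ly6g, while Ly6c1 stands at -0.07 in clone 1 and 1.49 in clone 2 and is the single gene whose interval between clones does not include 0.

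Values along the cluster are given as a description, since 6 of its genes were chosen with this contrast known and Ly6f was named after its values were seen. Ly6f, beyond Ly6g, had 4 and 0 reads in the WT libraries and 37 to 67 reads in the KO libraries (0.964 to 1.61 CPM). Its edgeR adjusted p of 0.0863 did not pass. Within 500 kb on either side of the stretch from Ly6e to Ly6f, 8 other genes were tested. None of them was called, and their log2 fold changes of KO against WT ran from -0.77 (Arc) to 0.94 (Mafa), with 2 of 8 positive. These neighbours include 2010109I03Rik (-0.75 ± 0.34) and Lynx1 (-0.14 ± 0.34), which are listed in the wider Ly6 superfamily. The nearest tested gene on the Ly6f side, Zfp41, stood at -0.11 ± 0.18. No boundary of the difference is read from these values.

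**Figure D4:**
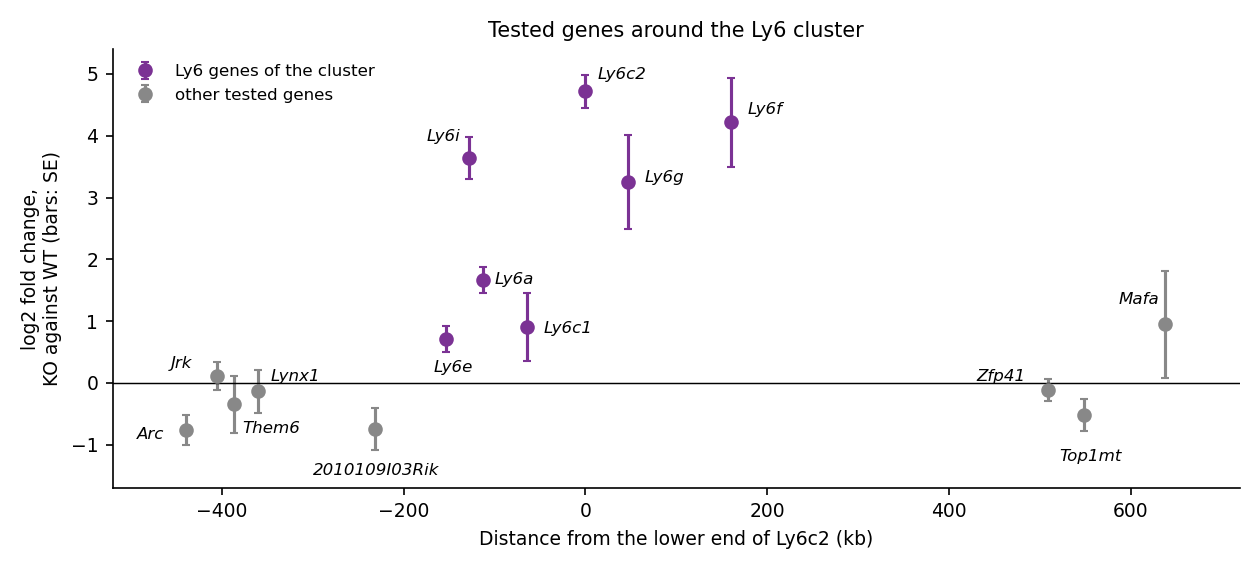
Log2 fold change of KO against WT (bars of 1 SE) against the distance in kb from the lower end of Ly6c2, for the tested genes around the cluster. The 7 Ly6 genes lie between 0.71 and 4.72, and the 8 other genes lie between -0.77 and 0.94.

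Genes of the wider Ly6 superfamily, which share the fold and are scattered over the genome, showed no shared direction. The table lists 27 of them, Ly6f included, and 12 were tested. In KO against WT 4 were positive and 8 negative, with a median log2 fold change of -0.14, and none was called. Over all genes tested 50.2% were positive. Plaur, the urokinase receptor, had 77.2 and 133 CPM in the WT mice, with KO values of 69.2 to 126 CPM. Cd59a, an inhibitor of complement on the cell surface, had 1.43 and 1.58 CPM in the WT mice, with KO values of 0.964 to 1.82 CPM. Lynx1 stood at 4.79 and 5.78 CPM against 2.74 to 5.92 CPM, and Lypd1 at 1.89 and 1.38 CPM against 0.745 to 1.47 CPM. The genotypes overlapped for these 4 genes. Cd177, a neutrophil antigen, had 0.461 and 0.275 CPM in the WT mice, with KO values of 1.503 to 4.25 CPM, without overlap. Its log2 fold change was 2.76 ± 0.55 (SE, edgeR adjusted p = 0.125), which did not pass.

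Genes that build and attach the GPI anchor showed no call. All 29 listed in the table were tested, 18 were positive, and the median was 0.31. Pgap2, which remodels the lipid of the anchor, had the smallest p (0.69 ± 0.17, adjusted p = 0.218). Piga, of the enzyme that starts the anchor, had an adjusted p of 0.992.

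Interferon-stimulated genes, Ly6a and Ly6e being known targets of interferon, were set beside the members. Of 43 tested, 40 were positive with a median of 0.93 in KO against WT, and 1 was called, the GTPase Tgtp1 (2.64 ± 0.24). Ifi44 (2.12 ± 0.29), the regulator Irf7 (1.497 ± 0.21) and the GTPase Irgm1 (1.28 ± 0.19) had the next smallest p and did not pass. The other 3 genes were negative, among them Isg15 (-0.23 ± 0.47). Isg15 stood at 25.1 and 99.1 CPM in WT mice 1 and 2 and at 44.1 to 66.6 CPM in the KO libraries, so the genotypes overlapped. The list summed to 4914 and 6578 CPM in the WT and 9219 to 11523 CPM in the KO libraries. Its part in the Ly6 values was not tested.

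Markers of T and NK cells, some of which carry Ly6 proteins, stood higher in the same libraries. In the T and NK cell list 22 of 23 genes were positive (median 2.40) and 5 were called, among them Ctla4 (3.47 ± 0.26), Klrk1 (2.63 ± 0.23), Pdcd1 (3.16 ± 0.29) and Cd3g (3.82 ± 0.39). The list summed to 35.7 and 62.6 CPM in the WT libraries, 304 and 172 CPM in clone 1 mice 1 and 2 and 271 and 227 CPM in clone 2 mice 1 and 2. Its defining markers were low. Cd3e stood at 0.022 and 1.86 CPM in WT mice 1 and 2 and at 0.443 to 2.84 CPM in the KO libraries. The genotypes overlapped for Cd3e, with 1 KO library above both WT libraries. Cd3g stood at 0.922 and 0.619 CPM in WT mice 1 and 2 and at 7.42 to 14.9 CPM in the KO libraries. Among the KO libraries, clone 1 mouse 2 had the lowest sum, the highest Ly6c2 level (100.4 CPM) and the lowest Ly6a and Ly6e levels. This is 1 library, Ly6c2 differed by at most 1.17 times among the KO libraries, and nothing is read from it. The part of T and NK cells in the Ly6 values was not tested.

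In the classical monocyte list, whose cells are defined by high Ly6C, 12 of 13 genes were positive (median 1.69) and 1 was called, Ms4a4c (1.84 ± 0.20). Plac8 (2.39 ± 0.37), Hp (2.31 ± 0.35) and Mgst1 (1.54 ± 0.25) did not pass. Ccr2, the chemokine receptor that brings monocytes out of the bone marrow, stood at 277 and 40.6 CPM in the WT and 280 to 717 CPM in the KO libraries. The sum of the list, 3461 and 4592 CPM in WT libraries against 3695 to 4576 CPM, overlapped, and Fn1 took 1875 to 3995 CPM of it. In the nonclassical monocyte list, whose cells have low Ly6C, 6 of 10 genes were positive (median 0.05) and none was called. Its defining markers Nr4a1 and Cx3cr1 stood at 0.01 ± 0.44 and 0.09 ± 0.23. Its genes of smallest p were Pglyrp1 (2.19 ± 0.51), Adgre4 (2.54 ± 0.84), Itgal (-1.27 ± 0.63) and Ace (0.65 ± 0.45). The part of monocytes in the Ly6 values was not tested.

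The remaining marker lists had no call. In the neutrophil list 8 of 12 genes were tested and 7 were positive, with sums of 99.3 and 109 CPM for WT and 172 to 326 CPM for KO, of which Mmp9 took 98.9 to 270 CPM in the KO group. In the endothelial list 5 of 10 were positive, with sums of 38.5 and 71.3 CPM against 73.7 to 107 CPM, Pecam1 at 1.48 ± 0.19 and Cdh5 at 0.16 ± 0.48. In the dendritic cell list 6 of 10 were positive, with sums of 68.5 and 127 CPM against 92.6 to 108 CPM. In the fibroblast list 6 of 10 were positive, with sums of 4160 and 12015 CPM against 2476 to 3952 CPM. The B cell list, with 2 of 3 tested genes positive, summed to 6.41 and 4.47 CPM in WT mice 1 and 2 against 8.57 to 13.8 CPM. The epithelial or tumour cell list, with 0 of 3 positive, summed to 16.7 and 44.7 CPM against 11.4 to 13.2 CPM. Both lists were low in all libraries, and the genotypes overlapped in neither. The part of these cells was not tested.

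**Figure D5:**
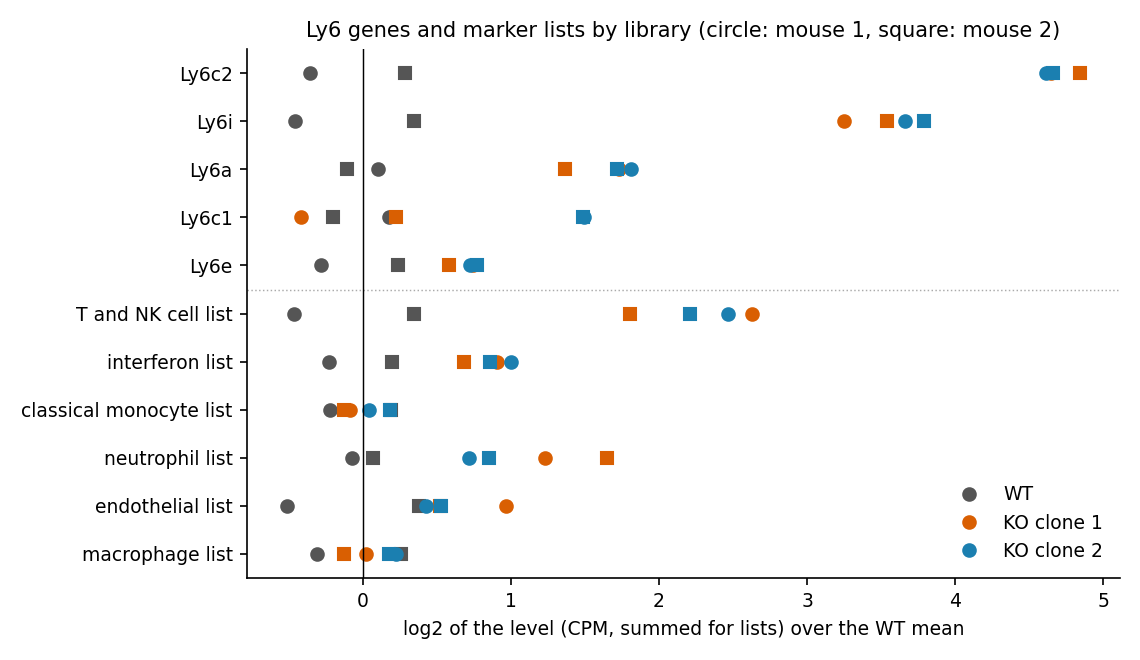
Level of 5 Ly6 genes and the summed level of 6 marker lists in each library, as the log2 of the ratio to the WT mean (circle: mouse 1, square: mouse 2). Ly6c2 stands at 4.61 to 4.84 and Ly6i at 3.25 to 3.79 in KO libraries, the T and NK cell list at 1.80 to 2.63, and the classical monocyte and macrophage lists overlap WT. The gene Fn1 makes up much of the classical monocyte sum. By gene, 12 of the 13 in that list were positive in KO against WT (median log2 fold change 1.69).

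The genes whose profile over the 6 libraries was most like each member were found by the root mean square difference of log2 CPM, each gene centred on its own mean, over 10252 genes. For Ly6c2 the nearest were Cd3g (0.66), Ctla4 (0.67) and Icos (0.77), all genes of T cells, and the member Ly6i was nearer than any of them (0.58). For Ly6i the nearest were Ctla4 (0.32), Pdcd1 (0.37) and the lymphocyte GTPase Gimap4 (0.40). For Ly6a they were Mgst1 (0.10), the death ligand Tnfsf10 (0.11) and the interferon-inducible GTPase Tgtp2 (0.14). For Ly6e they were the MHC class I gene H2-K1 (0.06), the antiviral enzyme Oas1a (0.08) and Rgag4 (0.08). For Ly6c1 they were the transporter Slco1a5 (0.21), the adhesion molecule Vcam1 (0.31) and Tmem176b (0.32). Ly6c2 and Ly6i thus shared Ctla4 among their nearest genes, and the lists of the other members held no gene in common. The measure takes in the step between genotypes on which the members were chosen, so genes with a similar fold change lie near. In KO against WT the log2 fold changes were 4.72 for Ly6c2, 3.82 for Cd3g, 3.47 for Ctla4 and 3.32 for Icos. Nothing about cell types is read from these distances. Ly6c2 and Ly6c1 lay 2.03 apart, the largest distance among the 5 members above 5 CPM.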

How the data were processed

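Libraries were made from total RNA with ribosomal RNA removed, per the labels' protocols. The deposited values are estimated counts of reads for each gene symbol, all whole and without scaling. The submitters' processing notes list Salmon 0.7.2 and mm10, with no role or order. The sources used here do not give the transcript set, the division of reads shared by similar genes or the use of strand. Each library is from a separate mouse and counts as 1 sample, and both mice of a clone share its knockout event.

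The quasi-likelihood F test of edgeR 4.0.16 under R 4.3.3 was used, after filterByExpr by genotype (minimum count 10, minimum total 15) with TMM factors. KO against WT used 2 genotype levels, and the clone contrasts a fit with 3 groups. Benjamini-Hochberg adjustment ran over all 15560 genes, threshold 0.05. SE is the absolute log2 fold change divided by the square root of F, and 95% intervals use the residual plus prior degrees of freedom. Log2 CPM used a prior count of 2. The fits were tested on simulated counts. All 6 members matched GENCODE M21, and alignments were made with Biopython 1.88.

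The members and lists were chosen with earlier results of these data known. Named outside the members were superfamily genes of at least 1 CPM, up to 4 genes per list and its defining markers (1 is not reported here), and the 3 nearest profiles of at least 5 CPM. Ly6f (under 1 CPM), Fn1, Arc, Mafa and Zfp41 were named after their values were seen. Alternatives were RLE factors, DESeq2 1.42.0, limma-voom 3.58.1, other filters, the mouse number as a block, Rn45s left out, the clones' mean, the summed Ly6c pair and each library left out.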

Additional observations from a re-analysis of the deposited data

Results flagged for a closer look

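Ly6g in the 4 KO libraries held 1 library far from the rest. Clone 2 mouse 1 stood at 0.788 CPM (31 reads), against 0.533 to 0.573 CPM (22 to 23 reads) in the other 3, a gap of 0.844 of the whole range by Dixon's measure, above its 95% critical value for 4 samples. Chance flags about 1 in 20 such groups, and 6 genes were looked at. The exact 95% Poisson interval of that library, 0.536 to 1.12 CPM, which covers counting error only, overlaps those of the other 3. Without it the log2 fold change of clone 2 against clone 1 for Ly6g was 0.01, against 0.28 with it.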

How the results depend on the processing

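In KO against WT, 21 genes were called with edgeR, 498 with DESeq2 (360 higher and 138 lower, 72.3% higher against 95.2%), 111 without a filter beyond 1 count and 1 for the mean of the clones, and 1 to 6020 with a library left out, the highest without WT mouse 1. It was 28 without WT mouse 2 and 1, 4, 1 and 1 without single KO libraries. Clone 1 against WT gave 1 gene, 268 with DESeq2, 123 without the filter, 0 at 5 CPM in 2 libraries, and 0 to 5535 with a library left out. Clone 2 against WT gave 1 gene, 9 with RLE factors, 8 without Rn45s, 462 with DESeq2, 229 without the filter, 0 at 5 CPM, and 0 to 6445 with a library left out. Clone 2 against clone 1 gave 0, 117 with DESeq2, 53 without the filter, and 0 to 87 with a library left out. The causes were not tested.

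Ly6c2, Ly6i, Ly6a, Ly6e, Ly6g and Ly6c1 stayed positive for KO against WT in every alternative, from 4.42 to 5.03, 3.24 to 4.005, 1.54 to 1.79, 0.48 to 0.97, 2.73 to 7.43 and 0.64 to 1.17. The 7.43 of Ly6g comes from a fit in which the lone WT library has 0 reads and is no measure of size. In KO against WT, Ly6a did not pass with RLE factors, at 5 CPM in 2 libraries, with the replicate block or for the clones' mean. It passed with DESeq2, limma-voom, no filter beyond 1 count and Rn45s left out. Ly6i did not pass for the clones' mean but passed in the other fits named here, and Ly6c2 passed in all of them. Ly6c1 in clone 1 against WT turned to 0.15 without WT mouse 1 and 0.22 without clone 1 mouse 1, and was -0.42 without clone 1 mouse 2. Between clones, the summed Ly6c pair stood at 0.24, against -0.11 for Ly6c2. Where a group keeps 1 library, that library is assumed to vary like the others.

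The mouse number was not used as a pairing in the main fits. Differences between mouse 1 and mouse 2 correlated at -0.13 (WT and clone 1), 0.05 (WT and clone 2) and 0.20 (clone 1 and clone 2). Each group gives 1 such difference per gene, so whether equal numbers share a batch was not tested. With the mouse number as a replicate block, 15 genes were called in KO against WT and 0 in clone 1, clone 2 and between clones.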
